A study of Mus musculus with 10 samples.

Results

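The RNAs described here are 10 long noncoding RNAs of the mouse, chosen by name with earlier results of these data known. They are the small nucleolar RNA (snoRNA) host genes Gas5, Zfas1, Epb41l4aos, Snhg1, Snhg5, Snhg6, Snhg8 and Snhg12, and the nuclear RNAs Malat1 and Neat1. Of these 10, 8 were matched through GENCODE symbols to an identifier among the 38887 of the deposited table, and all 8 passed the filter on low counts that left 14346 genes. Snhg1 and Snhg8 were not matched to an identifier and are not analysed here as transcripts, but snoRNAs that lie within their loci are. The RNA came from hematopoietic progenitor cells of the bone marrow of mice bearing Lewis lung carcinoma, a transplantable mouse tumour. The CK2i group, of 5 libraries, had been given BMS-595, which inhibits protein kinase CK2, at 60 mg/kg over 2 weeks. The vehicle group, also of 5 libraries, had been given vehicle over the same time. All animals carried the tumour, so that none of the values describes a tumour-free mouse, and the sample titles call the vehicle group untreated. The labels give neither the mouse strain nor the age, nor whether each library stands for its own mouse. The p-values hence rest on the spread among these libraries alone, and some of it may be technical.

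A snoRNA host gene carries one or more snoRNAs in its introns. After splicing, the introns are trimmed to mature snoRNAs, which guide chemical modification of ribosomal RNA, while the spliced exons form a noncoding RNA that is often short-lived. Many such host RNAs begin with a run of pyrimidines, the 5′ terminal oligopyrimidine start also found on ribosomal protein mRNAs. In mammalian cells, spliced Gas5 is translated without giving a stable protein and is degraded by nonsense-mediated decay, and it accumulates when growth slows. Malat1 is retained in the nucleus at nuclear speckles, where splicing factors concentrate, and Neat1 is the RNA scaffold of paraspeckles. Both come from neighbouring loci on chromosome 19 and are made without the usual intron-rich structure of the hosts.

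The start sites show what several of the hosts share in sequence. RefSeq promoter entries on GRCm38.p6 were found for 7 of the 10 genes, and the 80 bases around each start are given below on the strand of the gene, 5′ to 3′. Position 1 is the annotated start and falls on the base numbered 46 of each run by construction. Capitals mark the longest pyrimidine run that lies between positions -10 and 20, and any match to TATAAA or TATATA, on either strand, between positions -45 and -16; on the other strand TATAAA reads TTTATA, and TATATA reads the same on both. For Gas5 the downstream of its 2 entries is shown, because the upstream entry held neither feature.
Gas5 (chr1:161035121-161035200, + strand): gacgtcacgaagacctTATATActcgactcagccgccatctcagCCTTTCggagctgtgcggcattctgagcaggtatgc
Snhg12 (chr4:132308633-132308712, + strand): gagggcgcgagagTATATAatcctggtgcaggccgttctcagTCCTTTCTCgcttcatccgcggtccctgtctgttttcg
Snhg5 (chr9:88522863-88522942, - strand): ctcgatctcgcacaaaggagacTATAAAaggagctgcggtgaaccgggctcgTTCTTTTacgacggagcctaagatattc
Snhg8 (chr3:123508302-123508381, - strand): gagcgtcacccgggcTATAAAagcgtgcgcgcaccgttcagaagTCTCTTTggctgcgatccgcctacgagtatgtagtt
Snhg1 (chr19:8723442-8723521, + strand): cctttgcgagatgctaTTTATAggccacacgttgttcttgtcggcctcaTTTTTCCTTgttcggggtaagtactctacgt
Zfas1 (chr2:167062889-167062968, + strand): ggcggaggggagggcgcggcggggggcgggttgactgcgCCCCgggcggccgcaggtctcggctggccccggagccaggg
Malat1 (chr19:5802638-5802717, - strand): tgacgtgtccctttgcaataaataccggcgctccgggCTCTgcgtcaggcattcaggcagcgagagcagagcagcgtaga

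A TATAAA or TATATA match stood in that window in 5 of the 7 genes (Gas5, Snhg12, Snhg5, Snhg8 and Snhg1), against 3.5% of all 32851 promoter entries of the table. Snhg12, Snhg5, Snhg8 and Snhg1 had a pyrimidine run of at least 7 bases between positions -10 and 20, which 17.9% of all entries have, and the run of Gas5 was 6 bases long. Counted from position 1 itself, the unbroken pyrimidine run was 6 bases in Snhg12 and in Snhg8 and 5 bases in Gas5, and 4.44% of all entries have at least 5. Zfas1 and Malat1 had neither a match nor a run of that length in these windows. The E-box CACGTG, which reads the same on both strands, was in none of these genes' entries, searched from 250 bases before the start to 50 after it, and in 7.15% of all entries. For the matches and runs, the genes were counted without the upstream Gas5 entry, while the shares are over entries. The windows were chosen after the values were seen, so the counts beside these shares are a description only. These are letters at annotated starts, and start sites were not measured in these libraries.

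Levels differed widely among the 8 RNAs. Per length, in deposited FPKM (fragments scaled to transcript length and library depth) averaged over 10 libraries, Gas5 stood at 827 and Malat1 at 685. This gave them ranks 2 and 3 among 4189 genes of long noncoding classes, which leave out snoRNAs and other small or structural RNAs. Snhg5 followed at 178 FPKM and Zfas1 at 173 FPKM, then Snhg12 at 112 FPKM and Neat1 at 110 FPKM. Snhg6 had 80.7 FPKM and Epb41l4aos 55.8 FPKM. Within libraries, Snhg5 exceeded Zfas1 in 9 of 10, by 5.15 ± 3.96 FPKM (SD, n = 10). Snhg12 exceeded Neat1 in 5 of 10, so these neighbours did not differ beyond their spread, and Neat1 exceeded Snhg6 in 8 of 10. The order of Gas5 and Malat1 was not the same in every library, since Malat1 was the higher of the pair in CK2i 2 and CK2i 5. Together the 8 RNAs took 0.519% ± 0.0466 of the counts of CK2i libraries and 0.526% ± 0.098 of the counts of vehicle libraries (SD, n = 5 each).

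With the inhibitor, 4 snoRNA host RNAs fell and none of the 8 RNAs rose. Gas5, Zfas1, Epb41l4aos and Snhg5 were 15.3% to 24.2% lower in CK2i libraries by the fitted fold change. Snhg12, Snhg6, Malat1 and Neat1 did not pass the test. In edgeR's quasi-likelihood test, adjusted over the 14346 genes, 13.2% of all tested genes had an adjusted p under 0.05, 6.76% with a lower level in CK2i. Among the 7636 genes with a mean of at least 20 CPM, 8.08% were called lower. All 6 measured hosts had a log2 fold change below 0, as had 50.2% of all tested genes. Because the RNAs were chosen with earlier results of these data known, these shares are a background and not a test of the set. In the following, CPM are counts scaled by the TMM-adjusted library total.

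**Figure D1:**
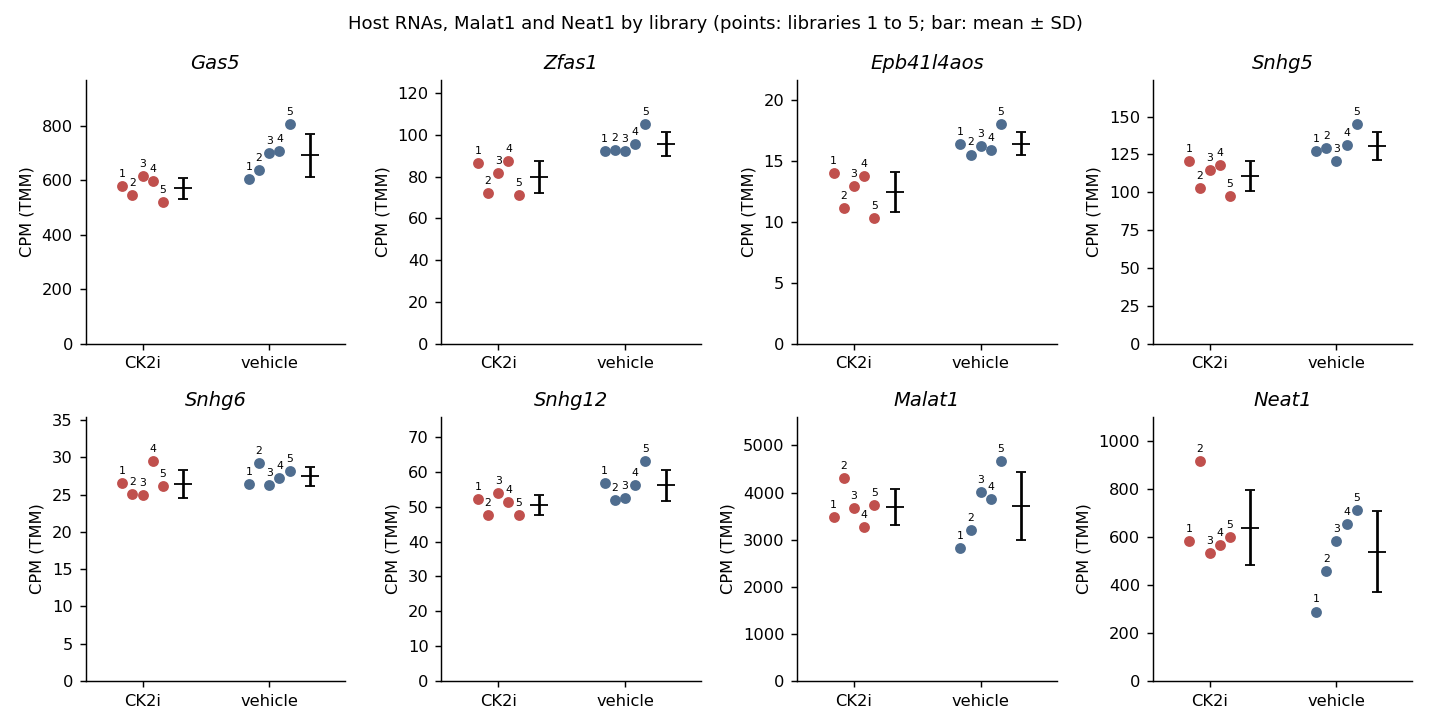
CPM of the 8 RNAs in each library, CK2i on the left and vehicle on the right of each panel; points are libraries 1 to 5, bars the mean ± SD, and each vertical axis starts at 0. Zfas1, Epb41l4aos and Snhg5 show every CK2i library below every vehicle library, while the groups overlap for Malat1 and Neat1, with Neat1 in CK2i 2 above all other libraries.

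Epb41l4aos (ENSMUSG00000087590; GRCm38 chromosome 18, 33794892 to 33795986), a spliced host of 1 annotated snoRNA, showed the largest fall of the 8. It had 14.04, 11.12, 12.95, 13.77 and 10.29 CPM in CK2i libraries 1 to 5, against 16.38, 15.52, 16.22, 15.91 and 18.05 CPM in vehicle libraries 1 to 5. All CK2i libraries lay below all vehicle libraries, with CK2i 5 and CK2i 2 lowest. CK2i differed from vehicle by a log2 fold change of -0.40 ± 0.09 (SE, edgeR adjusted p = 0.0247).

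Zfas1 (ENSMUSG00000074578; chromosome 2, 167062934 to 167065862) hosts snoRNAs of the Snord12 family and runs antisense to the start of Znfx1. It had 86.39, 72.16, 81.63, 87.41 and 71.28 CPM in CK2i libraries, against 92.06, 92.49, 92.34, 95.46 and 105.3 CPM in vehicle libraries. The groups did not overlap, and CK2i 5 and CK2i 2 were again lowest. Its log2 fold change was -0.26 ± 0.07 (SE, edgeR adjusted p = 0.0348).

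Gas5 (ENSMUSG00000053332; chromosome 1, 161034422 to 161038539), the most abundant host, had 577.4, 547.0, 614.9, 596.3 and 518.1 CPM in CK2i libraries, against 603.5, 638.4, 698.5, 706.4 and 807.5 CPM in vehicle libraries. CK2i 3 lay above vehicle 1, so the groups overlapped in CPM by this pair. In deposited FPKM they did not overlap, at 699.45 to 803.21 in CK2i libraries and 834.19 to 1015.89 in vehicle libraries. The log2 fold change on counts was -0.28 ± 0.08 (SE, edgeR adjusted p = 0.0413). Gas5 made up 67.1% ± 0.962 of the summed CPM of the 6 measured hosts in CK2i libraries and 67.8% ± 1.72 in vehicle libraries (SD, n = 5 each).

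Snhg5 (ENSMUSG00000097195; chromosome 9, 88521050 to 88522929), the host of Snord50a and Snord50b, had 120.4, 102.6, 114.6, 117.9 and 97.73 CPM in CK2i libraries, against 127.4, 129.0, 120.6, 131.2 and 145.3 CPM in vehicle libraries. The groups were separated by a narrow margin between CK2i 1 and vehicle 3, and in FPKM they overlapped. On the log2 scale the difference was -0.24 ± 0.07 (SE, edgeR adjusted p = 0.0428). With Epb41l4aos and Zfas1 this made 3 of the 8 RNAs whose CK2i libraries all lay below all vehicle libraries in CPM, a pattern found for 5.76% of all tested genes.

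The 4 calls lay close to the threshold and depended on single libraries. None of the 4 passed without CK2i 2, without CK2i 5, without vehicle 4 or without vehicle 5. Without vehicle 1 only Gas5 passed, and without vehicle 3 only Epb41l4aos, while 3 passed without CK2i 1 (all but Gas5) and 3 without vehicle 2 (all but Snhg5). Over these fits without 1 library, the adjusted p (edgeR) ran from 0.0211 to 0.0571 for Epb41l4aos, from 0.0278 to 0.0788 for Zfas1, from 0.0274 to 0.0959 for Gas5 and from 0.0368 to 0.0954 for Snhg5. The sizes moved less than the calls, with log2 fold changes of -0.45 to -0.34 for Epb41l4aos and -0.32 to -0.21 for Gas5.

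**Figure D2:**
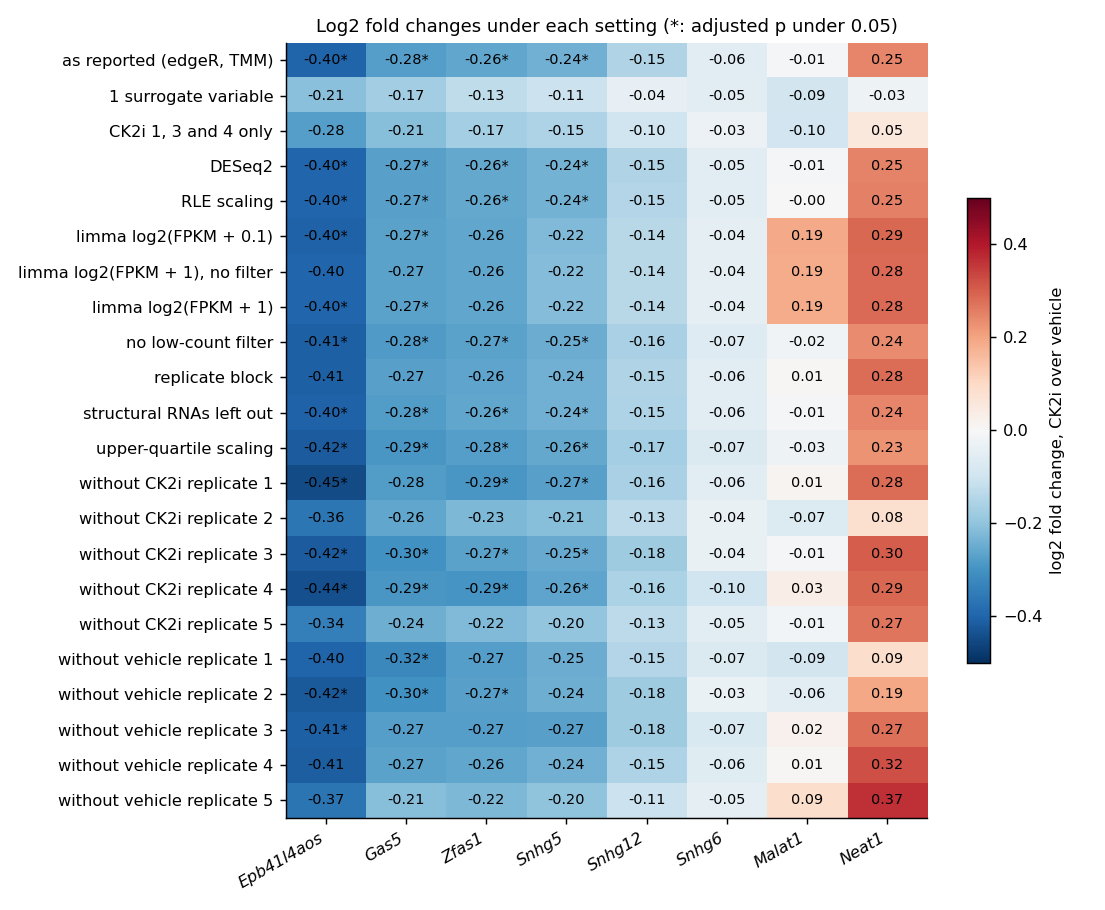
Log2 fold changes, CK2i over vehicle, of the 8 RNAs (columns) as reported and under the 21 other settings (lines), with an asterisk where the adjusted p was under 0.05. The 6 hosts stay below 0 throughout, the calls of 4 of them come and go, and Malat1 and Neat1 carry no call.

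In a principal component analysis of all tested genes, the leading component (40.8% of the variance) placed CK2i 2 at 43.26 and CK2i 5 at 43.68. The other 3 CK2i libraries ranged over -4.1 to 12.48 and the vehicle libraries over -29.62 to -9.37. The summed CPM of the 6 hosts was lowest in these same libraries, at 805.6 in CK2i 2 and 771.0 in CK2i 5. CK2i 1, 3 and 4 summed to 876.9, 903.0 and 896.3, and the vehicle libraries ranged over 922.6 to 1167. When only CK2i 1, 3 and 4 were set against vehicle, an alternative chosen after seeing the data, Epb41l4aos differed by -0.28 (edgeR adjusted p = 0.0792), Gas5 by -0.21 (0.200), Zfas1 by -0.17 (0.131) and Snhg5 by -0.15 (0.180), and none of the 8 RNAs passed. With 1 surrogate variable in the fit, which correlated with the group at 0.65, the values were -0.21 for Epb41l4aos (edgeR adjusted p = 0.298), -0.17 for Gas5 (0.455), -0.13 for Zfas1 (0.434) and -0.11 for Snhg5 (0.521), and again none passed.

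Snhg12 (ENSMUSG00000086290; chromosome 4, 132308623 to 132311024), which hosts several H/ACA snoRNAs, had 52.11, 47.63, 53.95, 51.45 and 47.51 CPM in CK2i libraries, against 56.89, 52.02, 52.57, 56.17 and 63.09 CPM in vehicle libraries. CK2i 2, 4 and 5 lay below all vehicle libraries and the others overlapped with them. The log2 fold change was -0.15 ± 0.06 (SE), with a 95% interval of -0.28 to -0.02 before adjustment, and it missed the threshold (edgeR adjusted p = 0.101).

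Snhg6 (ENSMUSG00000098234; chromosome 1, 9941959 to 9944118), the host of Snord87, showed the smallest difference among the hosts, with 26.54, 25.02, 24.93, 29.49 and 26.10 CPM in CK2i libraries, against 26.40, 29.29, 26.26, 27.26 and 28.17 CPM in vehicle libraries. CK2i 2, 3 and 5 lay below all vehicle libraries, while the single highest library was CK2i 4. Its log2 fold change was -0.06 with a 95% interval of -0.18 to 0.07 (edgeR adjusted p = 0.506), so that the size seen for Epb41l4aos lies outside the interval. The difference between hosts was not itself tested.

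Malat1 (ENSMUSG00000092341; chromosome 19, 5795690 to 5802672) had 3490, 4307, 3675, 3266 and 3736 CPM in CK2i libraries, against 2818, 3213, 4018, 3860 and 4668 CPM in vehicle libraries. The vehicle libraries spanned the whole range of the CK2i libraries, with vehicle 1 lowest and vehicle 5 highest of all 10. The log2 fold change was -0.01 with a 95% interval of -0.28 to 0.26 (edgeR adjusted p = 0.971). On the FPKM scale, which also carries RSEM's estimate of transcript length, the means were 729 ± 126 in CK2i and 642 ± 121 in vehicle libraries (SD, n = 5 each), and the difference turned to 0.19 on the log2(FPKM + 1) scale (limma adjusted p = 0.388).

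Neat1 (ENSMUSG00000092274; chromosome 19, 5824708 to 5845478) had 581.9, 916.3, 532.6, 566.4 and 598.8 CPM in CK2i libraries, against 289.2, 457.4, 584.3, 652.6 and 712.7 CPM in vehicle libraries. CK2i 2 was high and vehicle 1 low, and the other 8 libraries overlapped. The log2 fold change of 0.25 had a 95% interval of -0.25 to 0.75 (edgeR adjusted p = 0.465), the widest among the 8 RNAs, and became 0.08 without CK2i 2 and 0.09 without vehicle 1. Short and long Neat1 isoforms share one identifier and were not told apart. There were 17.2 ± 2.54 Neat1 counts per 100 Malat1 counts in CK2i libraries and 14.2 ± 2.44 in vehicle libraries (SD, n = 5 each), with overlapping ranges of 14.5 to 21.3 in CK2i and 10.3 to 16.9 in vehicle.

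Within groups, most hosts varied together across libraries, as did Malat1 and Neat1. After each group was centred on its mean, Pearson's r of log2 CPM over the 10 libraries had a median of 0.723 among the 15 pairs of hosts, from 0.087 for Snhg6 with Snhg12 to 0.957 for Zfas1 with Snhg5. It was 0.918 for Malat1 with Neat1. The 12 pairs of a host with Malat1 or Neat1 had a median of 0.001, and Gas5 was the exception with 0.617 to Malat1 and 0.524 to Neat1. These values describe 10 libraries that share one normalisation, and genes within them are not independent.

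**Figure D3:**
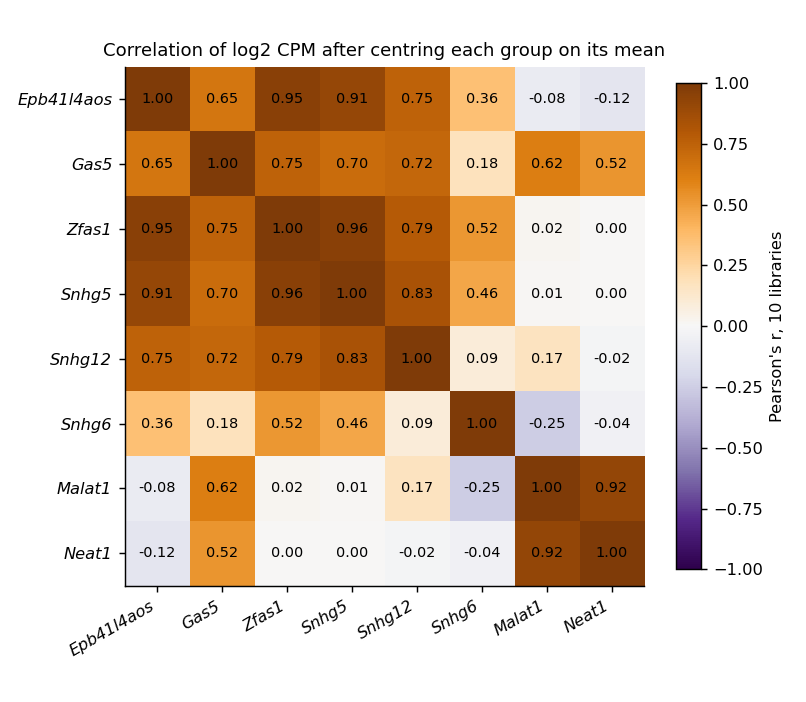
Pearson's r of log2 CPM between each pair of the 8 RNAs over the 10 libraries, after the mean of each group was removed; the colour scale runs from -1 to 1. Epb41l4aos, Zfas1, Snhg5 and Snhg12 have high values with each other, as do Malat1 and Neat1, and Gas5 has positive values with all 7 others.

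The genes most like each RNA by the same measure were searched among 8860 named genes with a mean of at least 10 CPM. Each value below is thus the highest or next highest of a large search over 10 libraries. Such a search can give high values for unrelated genes, and no link was tested. Gas5 was closest to Eif4a2, itself a snoRNA host that encodes a translation initiation factor (r = 0.952), and to Ppp1r10 (0.938). Zfas1 was closest to Pacsin2 (0.964) and Diablo (0.963), Epb41l4aos to Pacsin2 (0.957) and Tldc1 (0.956), and Snhg5 to Pik3r2 (0.988) and Epn1 (0.963). For Snhg12 they were Dnaja4 (0.965) and Snx19 (0.953), and for Snhg6 Rpa3 (0.974) and Wipi2 (0.971). Smarcc2, a chromatin remodelling subunit, was the closest to both Malat1 and Neat1 (0.927 each), followed by Furin for Malat1 (0.922) and Malat1 itself for Neat1.

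Within the 10 loci, 29 annotated snoRNAs lie on the host's strand and have an identifier of their own in the table. Of these, 17 had a count of 0 in all libraries and 7 passed the filter. By length, 1 of 23 snoRNAs under 100 bases was tested, against all 6 of at least 100 bases, and over all 1484 snoRNA identifiers the shares tested were 0.877% and 6.23%. The short C/D box snoRNAs of Gas5, Snhg1, Snhg5 and Zfas1 were thus mostly at 0 in these libraries, and their zeros do not show that they were absent. The sequences of 6 of the 7 tested snoRNAs are shown, and that of Gm23639 is not. All 7 have an identifier and counts of their own. Snora44 has no capitals because no ACA was found at the searched place near its 3′ end. The sequences are those of the GENCODE transcripts on GRCm38; capitals mark the ACA box near the 3′ end of the H/ACA snoRNAs, and the C box TGATGA and D box CTGA of the C/D snoRNAs where a match stands near the ends, searched on the snoRNA's strand.
Snord22, in Snhg1 (chr19:8725866-8725991, + strand): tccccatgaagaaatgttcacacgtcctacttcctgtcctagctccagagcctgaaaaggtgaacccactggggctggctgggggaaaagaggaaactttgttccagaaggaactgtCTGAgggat
Gm22357, in Gas5 (chr1:161036057-161036139, + strand): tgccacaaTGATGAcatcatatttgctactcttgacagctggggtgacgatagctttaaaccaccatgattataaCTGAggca
Snora24, in Snhg8 (chr3:123507937-123508066, - strand): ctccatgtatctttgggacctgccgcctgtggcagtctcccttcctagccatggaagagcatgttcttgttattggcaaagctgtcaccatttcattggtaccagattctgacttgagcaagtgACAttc
Snora16a, in Snhg12 (chr4:132309465-132309600, + strand): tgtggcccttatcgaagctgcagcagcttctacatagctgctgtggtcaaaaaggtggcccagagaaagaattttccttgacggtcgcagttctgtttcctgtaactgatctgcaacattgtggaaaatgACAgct
Snora44, in Snhg12 (chr4:132309941-132310069, + strand): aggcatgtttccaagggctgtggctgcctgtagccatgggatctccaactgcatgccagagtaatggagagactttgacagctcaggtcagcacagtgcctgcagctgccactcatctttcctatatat
Snora61, in Snhg12 (chr4:132310240-132310369, + strand): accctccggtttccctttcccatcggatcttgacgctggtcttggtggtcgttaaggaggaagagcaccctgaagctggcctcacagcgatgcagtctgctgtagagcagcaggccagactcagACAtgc

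None of the 7 snoRNAs passed the test, and all 7 fitted differences were above 0, where those of the 6 measured hosts were below 0. This direction did not hold in every fit: with the surrogate variable Snord22 was at -0.11, Snora24 at -0.02 and Snora44 at -0.18, and Snora44 was at -0.01 when only CK2i 1, 3 and 4 were set against vehicle. The hosts of Snord22 and Snora24 were not measured. Snord22, in the Snhg1 locus, had the most counts, with 155, 238, 88, 214 and 415 in CK2i libraries and 125, 101, 118, 190 and 130 in vehicle libraries. CK2i 5 was far above the rest and CK2i 3 was the lowest of all 10. Its log2 fold change was 0.86 with a 95% interval of 0.06 to 1.67 (edgeR adjusted p = 0.124), and it passed without CK2i 3 (1.08, edgeR adjusted p = 0.0304). Without CK2i 5 its log2 fold change was 0.44 (0.320). Snora24, in the Snhg8 locus, had 63, 49, 29, 47 and 107 counts in CK2i libraries and 51, 31, 31, 59 and 53 in vehicle libraries. Its log2 fold change of 0.51 had a 95% interval of -0.27 to 1.29 (edgeR adjusted p = 0.324), and it was 0.12 without CK2i 5.

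In Snhg12, where host and snoRNAs were both measured, the fitted values had opposite signs, except that Snora44 took the sign of its host in both fits just named. Snora61, an H/ACA guide, had 31, 29, 28, 21 and 16 counts in CK2i libraries and 21, 11, 18, 15 and 18 in vehicle libraries. In CPM the groups overlapped through CK2i 5 alone, and the other 4 CK2i libraries exceeded every vehicle library. It had a log2 fold change of 0.67 (95% interval 0.20 to 1.14, edgeR adjusted p = 0.0589). The other pair in this host, Snora16a and Snora44, differed by 0.80 and 0.41 (edgeR adjusted p = 0.130 and 0.335). Gm22357, in Gas5, had 8 to 18 counts per library and was listed at 0 FPKM (log2 fold change 0.30, edgeR adjusted p = 0.434).

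Gm23639, the snoRNA of the Epb41l4aos locus, had 34, 38, 41, 36 and 33 counts in CK2i libraries and 35, 32, 30, 37 and 33 in vehicle libraries. Scaled to depth, the groups separated with CK2i on top, at 0.914 to 1.03 CPM against 0.748 to 0.903 CPM, while its host lay below in all 5. In FPKM the groups of Gm23639 overlapped. On the log2 scale it differed by 0.21 (95% interval -0.07 to 0.49, edgeR adjusted p = 0.324). Groups that do not overlap, higher in CK2i, were found for 5.18% of all tested genes. Of the 68 snoRNA identifiers tested anywhere in the genome, 2 passed, both higher in CK2i, and the median log2 fold change was 0.269, so positive values were not confined to these loci. How the counting divides reads of unspliced host RNA between host and snoRNA was not tested.

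**Figure D4:**
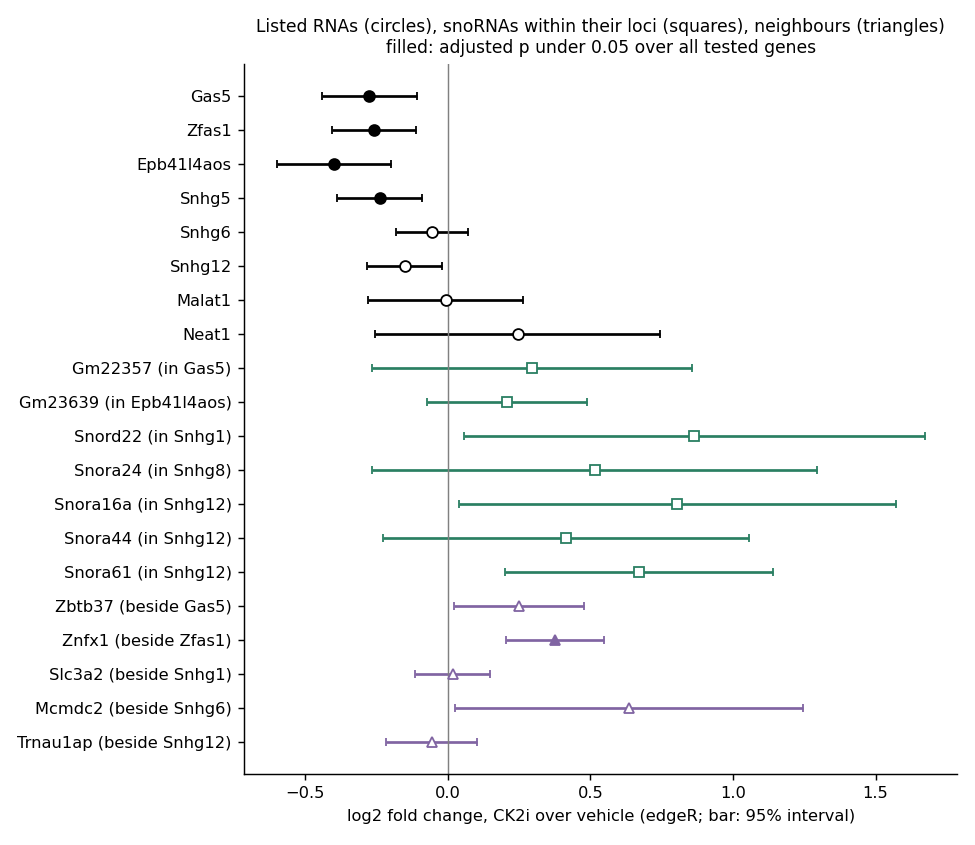
Log2 fold changes, CK2i over vehicle, with 95% intervals, of the 8 RNAs, the 7 tested snoRNAs within the 10 loci and 5 neighbouring protein-coding genes; filled symbols have an adjusted p under 0.05. The filled symbols are Gas5, Zfas1, Epb41l4aos and Snhg5 below 0 and Znfx1 above 0, and all snoRNA values lie above 0 with wide intervals.

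Protein-coding neighbours that overlap a locus or lie within 1 kb of it were compared after the data were seen. Znfx1, an antiviral RNA helicase gene that overlaps the start of Zfas1 head to head by 82 bases, rose by 0.38 ± 0.08 log2 (SE, edgeR adjusted p = 0.0195). It had 84.06, 94.77, 85.81, 76.79 and 105.5 CPM in CK2i libraries, against 74.80, 69.73, 67.22, 65.69 and 66.97 CPM in vehicle libraries. The groups did not overlap, in the direction opposite to Zfas1, and the call was kept in 9 of 10 fits without 1 library, with an adjusted p of 0.0518 without vehicle 4. When only CK2i 1, 3 and 4 were set against vehicle, Znfx1 differed by 0.25 (0.0673), and with the surrogate variable by 0.24 (0.239). It also missed the threshold in limma without a filter (0.0792). Zbtb37, a zinc finger gene that overlaps Gas5 on the other strand by 428 bases, had a log2 fold change of 0.25 (edgeR adjusted p = 0.116), and Mcmdc2, which overlaps Snhg6 by 127 bases, of 0.63 (0.133). The value for Mcmdc2 was 0.35 (0.328) without CK2i 2 and 0.78 (0.0495) without CK2i 3. It was 0.09 (0.822) when only CK2i 1, 3 and 4 were set against vehicle, and -0.15 (0.807) with the surrogate variable. Slc3a2 beside Snhg1, an amino acid transporter chain, differed by 0.02 (0.865), and Trnau1ap beside Snhg12 by -0.06 (0.600). The strand setting of the counting is not given in the sources used here, so reads within an overlap cannot be told apart.

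**Figure D5:**
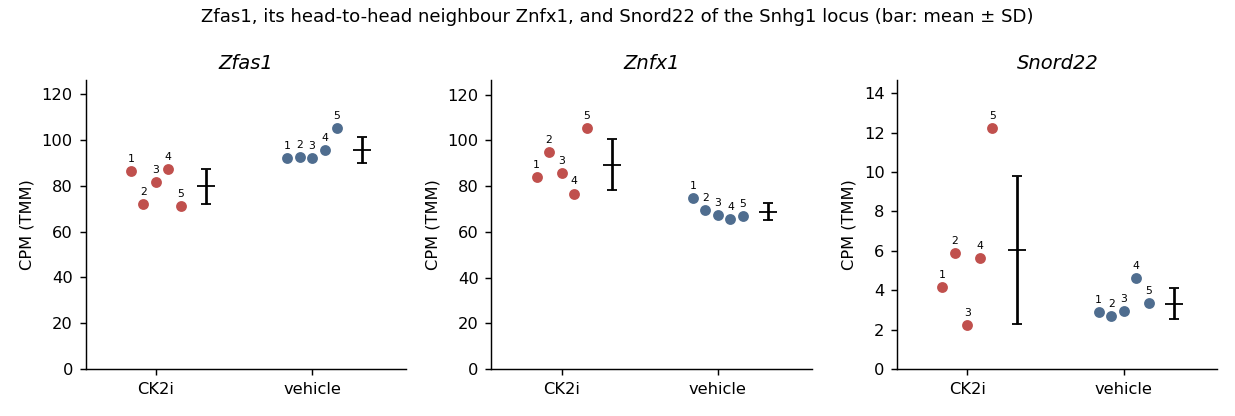
CPM by library of Zfas1, of its head-to-head neighbour Znfx1 and of Snord22 from the Snhg1 locus, CK2i left and vehicle right; points are libraries 1 to 5 and bars the mean ± SD. Zfas1 and Znfx1 separate the groups in opposite directions, and Snord22 is highest in CK2i 5 at 12.24 CPM.

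Lists of other genes of the same processes held few calls each, and differences between lists were not tested. The lists are read against 6.76% lower and 6.43% higher calls and a median log2 fold change of 0.00 over all tested genes. Among 6 tested of 14 other noncoding snoRNA hosts none passed in edgeR (median -0.06), with the smallest p for Snhg11 at 0.62 ± 0.21 and 0.37 ± 0.09 CPM in CK2i and vehicle (SD, n = 5 each, edgeR adjusted p = 0.0834). By limma, with either pseudocount or without a filter, 1 gene of this list passed. The gene that passed without a filter was lower in CK2i. Over fits without 1 library the adjusted p of Snhg11 ran from 0.0480 (without CK2i 3) to 0.192 (without CK2i 2). Its log2 fold change was 0.72, against 0.33 (0.519) when only CK2i 1, 3 and 4 were set against vehicle and 0.24 (0.789) with the surrogate variable. Of 19 protein-coding snoRNA hosts 1 fell (median -0.10), namely Eef2, the translocating elongation factor, by 0.16 ± 0.04 log2 (SE, adjusted p = 0.0331). Eef2 was also the single call among 17 translation genes of the oligopyrimidine class, of which 15 had values below 0 (median -0.06). Of 80 cytosolic ribosomal protein genes, a list added after the data were seen, 75 were tested, 74 had values below 0 and 5 passed, all lower, with a median of -0.11. The median was -0.054 when only CK2i 1, 3 and 4 were set against vehicle and -0.034 with the surrogate variable, with 0 calls in both (edgeR), and 0 passed without CK2i 2, CK2i 5, vehicle 1 or vehicle 4. In other fits more passed, with 8 to 11 ribosomal protein genes without CK2i 1, 3 or 4. With DESeq2, 14 ribosomal protein genes and 4 protein-coding snoRNA hosts passed. Rpl15 had the largest of the 5 ribosomal protein falls as reported, by 0.20 ± 0.05 log2 (SE, edgeR adjusted p = 0.0414). Eef2 did not pass without CK2i 2 or 5 or vehicle 1, 4 or 5 (adjusted p up to 0.0882), and Rpl15 passed only without CK2i 1 or CK2i 3 (up to 0.0944 otherwise). Rps12, Rps27 and Rpl10l are listed at 0 in all libraries.

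In the list of proteins that bind and assemble snoRNAs none of 18 passed (median -0.05), with the smallest p for Pih1d1, a subunit of the R2TP assembly complex, at -0.12 (edgeR adjusted p = 0.0874). None of 15 paraspeckle proteins passed in edgeR (median 0.03). Of 20 nuclear speckle and SR proteins 2 rose (median 0.00). They were Srrm2, a scaffold of speckles, by 0.53 ± 0.16 (0.0469) and Clk4, a kinase of SR proteins, by 0.27 ± 0.06 (0.0224). Of 17 nonsense-mediated decay factors 1 rose (median 0.02): Smg1, the kinase that phosphorylates the decay helicase UPF1, by 0.48 ± 0.12 (SE, edgeR adjusted p = 0.0337), and its groups did not overlap. Of 9 tested other nuclear long noncoding RNAs 2 rose (median 0.09), Dleu2, a microRNA host, by 0.85 ± 0.22 (0.0335) and Ftx, of the X inactivation centre, by 0.38 ± 0.11 (0.0419). None of 5 structural nuclear RNAs passed (median -0.03), with the smallest p for Terc, the telomerase RNA, at -0.09 (0.322). Each of these 5 calls was lost without CK2i 5 or without vehicle 1. Clk4 was also lost without vehicle 5, Smg1 and Dleu2 without CK2i 2 or vehicle 3, 4 or 5, and Smg1 without vehicle 2. Ftx was lost without CK2i 2 or 4 or vehicle 2, 3 or 4, and Srrm2 without any library but CK2i 1 or CK2i 3. The adjusted p without 1 library (edgeR) reached 0.0563 for Clk4 and 0.107 for Srrm2. When only CK2i 1, 3 and 4 were set against vehicle, no gene of these lists passed. With DESeq2 more passed, with 2 paraspeckle, 5 speckle and SR, 3 nonsense-mediated decay and 3 other nuclear long noncoding genes. None of the snoRNA-binding and assembly or structural lists passed with DESeq2.

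Total counts were 34127674 to 40811539 in CK2i libraries and 37569160 to 43636152 in vehicle libraries. The average biological coefficient of variation over all tested genes was 14.2%. Within a group, the coefficient of variation of a host's CPM ran from 4.62% (Snhg6 in vehicle) to 13.3% (Epb41l4aos in CK2i). This spread between libraries limits the precision for the hosts. Kit, the stem cell factor receptor and a marker of progenitors, was present in every library, at 225 ± 19.2 and 269 ± 16.1 CPM in CK2i and vehicle (SD, n = 5 each; log2 fold change -0.26, edgeR adjusted p = 0.0302, up to 0.0735 without CK2i 5 or vehicle 1, 3 or 4). Marker lists of cell types differed between the groups as reported here, but many of their calls rested on single libraries. Of 8 markers each, myeloid progenitor genes rose in 5 and fell in 1, at summed levels of 5460 to 8580 CPM in CK2i and 3070 to 5950 CPM in vehicle libraries, and late neutrophil genes rose in 3, at 59.9 to 176 CPM in CK2i and 35.2 to 69.3 CPM in vehicle. Megakaryocyte and platelet genes fell in 5, at 1570 to 3130 CPM in CK2i and 2640 to 4060 CPM in vehicle, and stromal and endothelial genes fell in 3, at 192 to 281 CPM in CK2i and 277 to 362 CPM in vehicle. Erythroid genes rose in 6, at 485 to 752 CPM in CK2i and 324 to 537 CPM in vehicle. Of B and plasma cell markers 1 of 5 tested fell, at 1010 to 3570 CPM in CK2i and 1810 to 2520 CPM in vehicle, and of T and NK cell markers 2 of 4 tested fell, at 81.7 to 106 CPM in CK2i and 92.3 to 107 CPM in vehicle. Without CK2i 2 the calls were 2 for myeloid progenitor, 1 for late neutrophil and 0 for megakaryocyte and platelet genes, and without CK2i 5 they were 1, 1 and 0 in the same order. The megakaryocyte and platelet calls were also 0 without vehicle 1, 3, 4 or 5, and 1 without CK2i 4. Erythroid genes kept 4 to 6 calls in the fits without 1 library, stromal and endothelial genes 2 to 4, and B and plasma cell genes 1 to 4. When only CK2i 1, 3 and 4 were set against vehicle, 0 genes of the myeloid progenitor, late neutrophil, megakaryocyte, and T and NK cell lists passed. In that fit 2 erythroid, 2 stromal and endothelial, and 1 B and plasma cell gene passed. With the surrogate variable, 1 stromal and endothelial gene passed and no gene of the other marker lists. The late neutrophil median was 0.876 with all libraries, 0.283 with CK2i 1, 3 and 4 only and -0.245 with the surrogate variable. None of the 7 marker lists held a gene at 0 in all libraries. Their part in the values of the hosts was not tested, and in such bulk RNA fewer cells of a type and less RNA per cell cannot be told apart.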

How the data were processed

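Per the labels, total RNA was sequenced with a stranded kit; the authors deposited estimated counts and FPKM values per gene. Per the submitters' processing notes, Bowtie2, RSEM 1.2.31, DESeq2 and the build mm10 were used; the annotation and the strand setting of the counting are not recorded there. All values deposited as estimated counts are whole; the deposited FPKM scale them by transcript length and depth. GENCODE M21 named 37570 identifiers.

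Counts were tested with edgeR 4.0.16 (R 4.3.3; quasi-likelihood, TMM, filterByExpr minimum 10, group only, two-sided, Benjamini-Hochberg over all tested genes, threshold 0.05). A standard error is the log2 fold change over the square root of F. Intervals of 95% are unadjusted. The script was tested on simulated counts. It recovered 98% of 2-fold changes, 90% of 1.5-fold rises and 70% of 1.5-fold falls, with 11 false calls. Each gene was drawn independently, so variation shared across genes, such as the leading component above, was not simulated. The rates thus need not hold for these libraries. Falls as small as those of the called hosts were not simulated. Alternatives used DESeq2 1.42.0, limma 3.58.1 on log2(FPKM + 1) and sva 3.50.0.

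Members and gene lists (9 of pathways, 7 of cell markers) were chosen with earlier results of these data known. The text names all 10 RNAs, up to 3 largest rises and 3 largest falls past the threshold per pathway list (or the smallest p), the 2 most alike genes per RNA, and the tested snoRNAs within the loci. One gene that this rule names is not reported here. The ribosomal protein list, the neighbours and the promoter windows were chosen after the values were seen. Libraries of a group differed beyond sampling noise (chi-square per degree of freedom 10.39 to 68.48).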

Additional observations from a re-analysis of the deposited data

Results flagged for a closer look

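In 98 groups of 5 libraries (49 genes named or used as markers, in CK2i and in vehicle), 8 held a library whose gap to the nearest other exceeded Dixon's limit of 0.71 of the range, where chance gives about 1 in 20. Among the noncoding RNAs, Neat1 in CK2i 2 stood at 916 CPM against 533 to 599 CPM in the other CK2i libraries, Zfas1 in vehicle 5 at 105 CPM against 92.1 to 95.5 CPM in the other vehicle libraries, and Terc in CK2i 1 at 26.6 CPM against 22.9 to 23.9 CPM in the other CK2i libraries. Snora44 in vehicle 4 stood at 1.51 CPM against 0.822 to 0.972 CPM in the other vehicle libraries. Among markers, Hbb-bs stood at 71.9 CPM in CK2i 3 (127 to 147 CPM in the others) and at 68.0 CPM in vehicle 5 (35.1 to 43.7 CPM in the others), Hba-a2 at 50.9 CPM in CK2i 3 (76.6 to 83.7 CPM) and Apoe at 64.5 CPM in CK2i 3 (47.4 to 52.4 CPM).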

How the results depend on the processing

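The fitted log2 differences of Gas5, Zfas1, Epb41l4aos, Snhg5, Snhg6 and Snhg12 stayed below 0 in all 21 other settings. Their sizes moved: with 1 surrogate variable Zfas1, Epb41l4aos, Snhg5 and Gas5 were at -0.13, -0.21, -0.11 and -0.17, against -0.26, -0.40, -0.24 and -0.28 as reported. Of the 8 RNAs 4 passed as reported, and 4 with RLE or upper-quartile scaling, without a count filter, without structural RNAs and with DESeq2. This was 2 by limma on log2(FPKM + 1) and on log2(FPKM + 0.1), and 0 by limma without a filter, with 1 surrogate variable (correlation 0.65 with the group), and with CK2i 1, 3 and 4 only. Without 1 library it was 0 to 4. All genes called numbered 1892 as reported, 3168 with DESeq2, 1098 and 1071 by limma with either pseudocount, 360 by limma without a filter, 61 with the surrogate variable, 175 with CK2i 1, 3 and 4 only, and 446 to 3198 without 1 library. Of 120 pathway genes 6 passed as reported, 18 with DESeq2, 2 by limma with either pseudocount and 1 without a filter, 3 without a count filter, 0 with the surrogate variable and with CK2i 1, 3 and 4 only, and 0 to 14 without 1 library. With the replicate number as a block, 1139 genes passed and 0 of the 8 RNAs. Same-numbered libraries deviated together with correlations of -0.159 to 0.228. Of 5 CK2i libraries 2 correlated best with their own number, and of 5 vehicle libraries 1. The labels state no pairing, and values this few cannot show whether the numbers pair the samples. The cause of the changes between settings was not tested.

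Values that turned sign were uncalled. Malat1 was at -0.01 as reported, 0.19 by limma in each of the 3 FPKM fits, 0.0075 with the block and -0.0931 to 0.0872 without 1 library. Slc3a2 ranged over -0.0135 to 0.059 without 1 library. With the surrogate variable Neat1 was at -0.0254, Snord22 at -0.11, Snora24 at -0.0173, Mcmdc2 at -0.15, Trnau1ap at 0.10 and Snora44 at -0.18, and with CK2i 1, 3 and 4 only Snora44 was at -0.0097 and Trnau1ap at 0.0290. Low counts limit the precision for the tested snoRNAs, with as few as 3 in a library (Snora16a in vehicle 1).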
